A study of Homo sapiens with 4 samples.

Results

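The mRNAs of cyclins and cyclin-dependent kinases (CDKs) were examined for binding by the helicase DHX36. Members were taken by gene symbol, as CCN followed by a letter and an optional number, or CDK followed by a number and an optional A or B. This gave 46 of the 26490 genes of the PAR-CLIP table, of which 25 were cyclins and 21 were kinases. In PAR-CLIP, a photoreactive uridine analog in the RNA is crosslinked to the bound protein by ultraviolet light, and crosslinked positions are read as C in place of T. Overlapping reads with such conversions form clusters, which mark the bound sites. The protein was either FH-DHX36, the FLAG/HA-tagged isoform 2, or FH-DHX36-E335A, the FLAG/HA-tagged isoform 1 with a mutation that abolishes helicase activity. Both were expressed in stable HEK293 lines, a human embryonic kidney cell line, under a tetracycline-inducible promoter. Both lines thus carried a transgene, the labels name no change to the endogenous DHX36 gene, and the isoform and the mutation changed together between them. Induction was with 500 ng/ml tetracycline for 15 h, followed by 5 min of light at 365 nm and immunoprecipitation through the FLAG tag. Of each line 2 replicates were sequenced, but the table holds a single set of values per line. No difference between the lines could therefore be tested, and values below are descriptions.

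Cyclins are regulatory subunits that bind and activate CDKs. Cyclins D, E, A and B act with CDK4, CDK6, CDK2 and CDK1 as cells pass through the cell cycle. A further group of cyclins and CDKs, among them cyclin T with CDK9 and cyclin K with CDK12 and CDK13, phosphorylates RNA polymerase II and acts in transcription. DHX36 binds and unwinds G-quadruplexes, which are 4-stranded structures that form in nucleic acids with several runs of G.

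The FH-DHX36-E335A table held 8752127 crosslinked reads in 60208 clusters, and the FH-DHX36 PAR-CLIP held 2160413 reads in 16742 clusters. The former was thus 4.05-fold larger in reads, and any count below is read against this. Where a gene is given a pair of values, the former is for FH-DHX36-E335A and the latter for FH-DHX36. Reads without molecular identifiers are not independent molecules, so that the 95% Wilson intervals given with shares cover counting error only.

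Binding was found on more cyclin genes than kinase genes. At least 1 FH-DHX36-E335A cluster was listed for 21 of 25 cyclins and for 12 of 21 kinases, against 34.5% of all genes of the table and 48.1% of the 17920 genes with a protein-coding transcript. With FH-DHX36 the numbers were 17 cyclins and 9 kinases, against 22.4% and 31.2%. In both PAR-CLIPs the cyclins thus exceeded the protein-coding background, with 84% and 68%, while the kinases exceeded it by less, with 57.1% and 42.9%. The order of the classes did not hold in every group. Of the cell-cycle genes, 9 and 7 of 11 cyclins and 4 and 4 of 5 kinases were bound. Of the transcriptional genes, 7 and 5 of 7 cyclins and 6 and 4 of 8 kinases were bound. Of the remaining genes, 5 and 5 of 7 cyclins and 2 and 1 of 8 kinases were bound. For 26 members, 17 cyclins and 9 kinases, clusters were listed in both PAR-CLIPs. No member was bound by FH-DHX36 alone, which over all genes held for only 261 of the 5930 genes bound by FH-DHX36. The 7 members with an FH-DHX36-E335A cluster alone made up a smaller share of the 33 members bound there than the 37.9% seen for all bound genes.

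Members bound with FH-DHX36-E335A alone carried few reads, with a median of 193 against 1516 for the 26 bound in both. They were CCNT2 with 1196 reads, CCNE2 with 366, CCNB2 with 339, CDK14 with 193, CCNH with 129, CDK8 with 48 and CDK7 with 27. CCNT2, a partner of CDK9, was the exception in this set, with 15 clusters, 8 of them in the 3′UTR, and an NXPM of 81.1. NXPM is a score of the authors that divides the crosslinked reads of a gene, as a part of all reads of that PAR-CLIP, by its RNA abundance. CDK7 and its partner cyclin H form the CDK-activating kinase, and CDK8 belongs to the Mediator complex.

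The 13 members with no cluster in either PAR-CLIP were CCNA1, CCNB3, CCNI2, CCNO, CDK3, CDK5, CDK10, CDK11A, CDK11B, CDK15, CDK17, CDK18 and CDK20. Abundance could be recovered from the table only for genes with a cluster, so that for these 13 a low RNA level and a lack of binding cannot be told apart. CDK11A and CDK11B are near-identical copies, and reads on them may have been lost or split in mapping. Absence is therefore uncertain for this pair.

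Reads were concentrated on cyclins. Summed over the class, cyclins held 53000 FH-DHX36-E335A reads, 0.606% of all, and 7567 FH-DHX36 reads, 0.350% of all. Kinases held 14962 reads, 0.171%, and 3239 reads, 0.150%. The plot of reads by member shows that a few cyclins held much of this sum. The median over bound members was close in both classes. It was 1097 reads for cyclins and 1116 for kinases with FH-DHX36-E335A, and 272 and 233 with FH-DHX36. Both medians were above those of all bound genes, which were 326 and 121. Per kb of transcript the order of the classes differed by PAR-CLIP, with medians of 346.5 reads for cyclins and 168 for kinases with FH-DHX36-E335A, and of 70.7 and 93.8 with FH-DHX36. CCND2 alone gave 28.9% of the FH-DHX36-E335A reads and 37.5% of the FH-DHX36 reads on cyclins. Of the kinases, CDK1 led with 21.4% of the FH-DHX36-E335A reads and CDK4 with 31.9% of the FH-DHX36 reads.

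**Figure D1:**
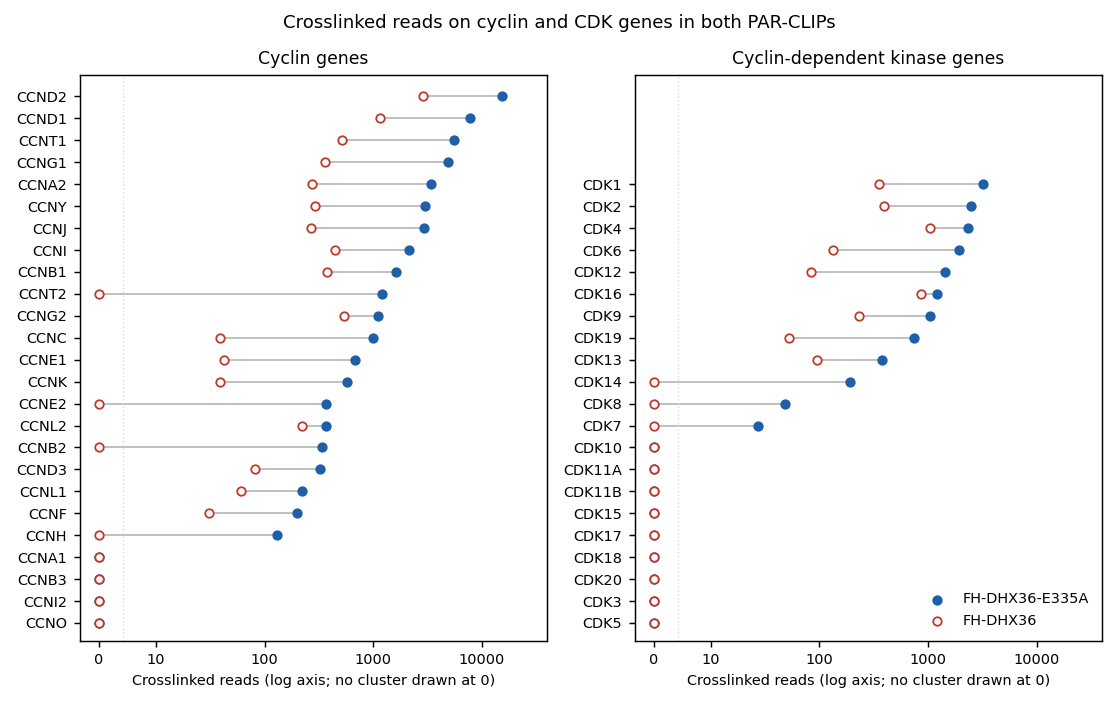
Crosslinked reads on each of the 25 cyclin genes (left) and 21 kinase genes (right) on a log axis, with FH-DHX36-E335A as filled and FH-DHX36 as open circles, and with genes without a cluster drawn at 0. Every member bound in both had more reads with FH-DHX36-E335A, CCND2 with 15341 and 2841 reads was highest in both, and the open circle hides the filled one where both are at 0.

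Clusters per gene were likewise above the level of all bound genes. The median was 13 clusters for cyclins and 9 for kinases with FH-DHX36-E335A, against 5 for all bound genes, and 3 and 4 with FH-DHX36, against 2. More than 20 FH-DHX36-E335A clusters were found on 5 of the 33 bound members, compared with 4.4% of all bound genes. These were CCND2 with 47, CDK6 with 34, CCNT1 with 27, and CCND1 and CCNI with 21 each. All but CCNI have a 3′UTR of more than 3000 nt.

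DHX36 is known for G-rich ligands, so the sequences of the members were searched for G runs. The pattern was at least 4 runs of G separated by 1 to 7 nt of any base, on the sense strand of the canonical transcript. Runs of at least 2 G were counted, and runs of at least 3 G as a stricter form. A match says only that these letters are present. For FH-DHX36-E335A the paper also reports an enrichment of A/U-rich sequences in the binding sites, and such sequences were not searched for here. The table gives no cluster positions, so that no match can be tied to a cluster. Matches to the stricter form were few. In regions that held FH-DHX36-E335A reads there were 8 in the 3′UTR of 6 members and 3 in the 5′UTR of a further pair of members. They are shown 5′ to 3′ as DNA letters on the strand of the gene, with the runs of at least 3 G in capitals and positions on GRCh37, since they are the sequences of this set closest to a canonical quadruplex motif.
CCND1 3′UTR, chr11:69469101-69469124, plus strand: GGGtctGGGcggcGGGcggctGGG
CCND2 3′UTR, chr12:4413297-4413319, plus strand: GGGccacaGGGGacaGGGctGGG
CCNT1 3′UTR, chr12:49086266-49086285, minus strand: GGGtGGGattggaGGGtGGG
CDK9 3′UTR, chr9:130552745-130552771, plus strand: GGGcagaGGGtgaaGGGatcacaGGGG
CDK13 3′UTR, chr7:40135247-40135263, plus strand: GGGtGGGGtGGGGaGGG
CDK16 3′UTR, chrX:47089140-47089165, plus strand: GGGttGGGGGaGGGGGGtgtgaGGGG
CDK16 3′UTR, chrX:47089195-47089217, plus strand: GGGGaGGGtgaggcaGGGcaGGG
CDK16 3′UTR, chrX:47089292-47089309, plus strand: GGGGtGGGaGGGcaGGGG
CCNG2 5′UTR, chr4:78078459-78078480, plus strand: GGGtGGGcgcgcGGGGagcGGG
CDK12 5′UTR, chr17:37617912-37617933, plus strand: GGGctaccGGGtaGGGGaaGGG
CDK12 5′UTR, chr17:37618246-37618268, plus strand: GGGGttGGGGGGGtGGGtGGGGG

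As classes, cyclins and kinases were not rich in G runs in the 3′UTR. Matches with runs of at least 2 G numbered 1.60 per kb of 3′UTR in cyclins and 1.33 per kb in kinases, against 1.84 per kb over all protein-coding genes. At least 1 match was present in the 3′UTR of 14 of 25 cyclins and 16 of 21 kinases, against 64.4% of all genes. In 5′UTRs the density was 7.49 per kb in cyclins and 11.7 per kb in kinases, against 6.84 per kb. The stricter form was found in the 3′UTR of 3 cyclins and 3 kinases, against 14.3% of all genes.

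The D-type cyclins, which activate CDK4 and CDK6 early in the cell cycle, held the most reads of the set. CCND2 (ENSG00000118971, chr12:4378937-4414519 on GRCh37, plus strand, 5 exons) has a 3′UTR of 5344 nt. It carried 15341 FH-DHX36-E335A reads in 47 clusters and 2841 FH-DHX36 reads in 19 clusters. Of these, 13899 reads in 33 clusters and 2641 reads in 15 clusters lay in the 3′UTR, which was 96.4% (95% interval 96.1 to 96.7) and 94.8% (93.9 to 95.5) of the exonic reads. In reads it ranked 30 and 102 over all genes, and in 3′UTR clusters it ranked 9 and 12. Its 3′UTR holds 10 matches to the pattern with at least 2 G, a number reached by 33.2% of 3′UTRs of like length, from 0.8 to 1.25 times its own. In the later annotation used here, the protein-coding gene model ENSG00000285901 overlaps CCND2 on the same strand by 31592 nt. The antisense gene CCND2-AS1 overlaps it by 6482 nt. The authors annotated clusters with GENCODE 19, and the part of these overlaps in the values was not tested.

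CCND1 (ENSG00000110092, chr11:69455924-69469242, plus strand, 5 exons) carried 7787 and 1157 reads in 21 and 13 clusters. Its reads were nearly all in the 3′UTR of 3192 nt, with 99.7% (99.6 to 99.8) of exonic reads for FH-DHX36-E335A and 95.7% (94.3 to 96.7) for FH-DHX36. That 3′UTR holds 15 matches with at least 2 G, as many as or more than which occur in 8.65% of 3′UTRs of like length. CCND3, with a shorter 3′UTR of 988 nt, was far lower, with 324 and 81 reads in 5 and 2 clusters. Its estimated abundance of 20.5 was above those of CCND1 with 8.25 and CCND2 with 8.54. The abundance is in the unit of the RNA values used by the authors. The D-type genes thus ranged 47.3-fold in FH-DHX36-E335A reads.

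Cyclins A, B, E and F, which act in S phase and mitosis, were bound in different regions. CCNA2 carried 3364 and 272 reads, and its 3′UTR share was 92.2% (91.2 to 93.1) with FH-DHX36-E335A and 40.1% (34.4 to 46.0) with FH-DHX36. Its 5′UTR held 132 and 163 reads, so that this region had more reads in the smaller PAR-CLIP. CCNB1, an activator of CDK1, had its exonic reads almost all in the coding sequence (CDS). It carried 1608 and 374 reads, of which 16 and 0 lay in the 3′UTR, 780 and 192 in the CDS, and 781 and 182 outside the region columns. CCNB2 likewise had 238 of its 339 FH-DHX36-E335A reads in the CDS. CCNE1 had 677 and 42 reads, CCNE2 had 366 reads with FH-DHX36-E335A, all in the 3′UTR, and CCNF had 198 and 31 reads. CCNA1 and CCNB3 had no cluster.

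Of the transcriptional cyclins, all 7 had an FH-DHX36-E335A cluster and 5 had an FH-DHX36 cluster. CCNT1 (ENSG00000129315, chr12:49082241-49110781, minus strand, 9 exons), which forms P-TEFb with CDK9, held 5546 and 512 of the 9030 and 871 reads of this group. It lay in 27 and 8 clusters, with 5045 of its 5206 exonic FH-DHX36-E335A reads and all 512 FH-DHX36 reads in the 3′UTR of 4575 nt. Its NXPM of 233.5 was the highest of all members with FH-DHX36-E335A. CCNC, a Mediator subunit, had 999 and 39 reads, and CCNK had 575 and 39. For neither was a 3′UTR cluster listed in the smaller PAR-CLIP, where the single CCNC cluster lay in the 5′UTR and both CCNK clusters in the CDS. CCNL1 and CCNL2, which act in splicing, had 219 and 61 and 366 and 220 reads. CCNL2 was bound in the 3′UTR in both, whereas CCNL1 had no 3′UTR cluster in either.

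Among the other cyclins, CCNG1, a target of p53, carried 4860 and 362 reads. Of its exonic reads, 49.6% (47.9 to 51.4) and 20.4% (16.1 to 25.5) lay in the 3′UTR and the rest in the CDS. CCNI showed a like pattern, with 2120 and 441 reads and 3′UTR shares of 43.3% (41.0 to 45.6) and 18.8% (15.2 to 23.1). CCNY, which tethers CDK14 and CDK16 to the membrane, had 2988 and 291 reads, and CCNJ had 2901 and 268. Their exonic reads lay in the 3′UTR at 99.2% and 96.7% with FH-DHX36-E335A and at 100% in both with FH-DHX36. CCNG2 differed from all of these, with 1097 and 536 reads. Its 5′UTR held 248 and 136 reads, its 3′UTR 388 and 0, and 395 and 400 reads had an annotation outside the region columns. The 5′UTR of CCNG2 is that with the match shown above and holds 6 matches with at least 2 G, a number reached by 7.48% of 5′UTRs of like length.

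Of the cell-cycle kinases, CDK1, the mitotic kinase, had the most FH-DHX36-E335A reads, and CDK4 the most FH-DHX36 reads. CDK1 carried 3205 and 350 reads in 17 and 9 clusters. It was bound mostly in the CDS with FH-DHX36-E335A, at 1503 of 2375 exonic reads, and neither its UTRs nor its CDS hold a match to the G-run pattern. CDK2, the partner of cyclins E and A, had 2496 and 394 reads, with 3′UTR shares of 80.4% (78.7 to 82.1) and 39.6% (34.9 to 44.5). CDK3 had no cluster.

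CDK6 (ENSG00000105810, chr7:92234235-92465887, minus strand, 8 exons) has the longest 3′UTR of the set, with 10219 nt. It carried 1914 reads in 34 clusters with FH-DHX36-E335A, 29 of them in the 3′UTR, and 134 reads in 4 clusters with FH-DHX36, 2 of them in the 3′UTR. The 3′UTR share of exonic reads was 87.7% (86.1 to 89.1) and 33.6% (26.1 to 41.9). By 3′UTR clusters CDK6 ranked 23 over all genes with FH-DHX36-E335A, yet it averaged 56.3 reads per cluster, against 326 for CCND2. The 3′UTR of CDK6 holds 3 matches with at least 2 G and none with at least 3 G. Of 275 3′UTRs of like length, 96% hold at least as many, and their median is 11.

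CDK4 (ENSG00000135446, chr12:58141510-58149796, minus strand, 8 exons), the other partner of cyclin D, had most of its reads elsewhere. It carried 2300 FH-DHX36-E335A reads, of which 1813 (78.8%) had an annotation outside the 5′UTR, CDS, 3′UTR and intron columns, and 1032 FH-DHX36 reads, all of them exonic. Exonic reads were thus 487 and 1032, fewer in the larger PAR-CLIP. In the CDS there were 178 and 669 reads and in the 3′UTR 11 and 192. The gene body of CDK4 overlaps that of TSPAN31 on the opposite strand by 2493 nt, and the part of this overlap in the values was not tested. CDK4 had the highest estimated abundance of the bound members, with 139, against 0.980 for CDK6.

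Transcriptional kinases carried fewer reads, with 3657 and 463 for the group. CDK12, the partner of cyclin K, had 1424 and 83 reads, of which 161 and 53 lay in the 5′UTR. That 5′UTR has both stricter matches shown above and 9 matches with at least 2 G, a number reached by 8.55% of 5′UTRs of like length. CDK13 had 380 and 94 reads, and no exonic FH-DHX36 read. CDK9, the kinase of P-TEFb, had 1035 and 233 reads, with 91.5% (89.4 to 93.3) and 100% (98.4 to 100) of exonic reads in the 3′UTR. Its 3′UTR of 1249 nt holds 8 matches with at least 2 G, a number reached by 8.0% of like length. CDK19, a Mediator kinase, had 743 and 53 reads, of which 323 and 53 were intronic. Its 5′UTR holds 11 matches, a number reached by 0.492% of like length, but no 5′UTR cluster was listed in either PAR-CLIP.

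Of the 8 remaining kinases, CDK16 and CDK14 had a cluster with FH-DHX36-E335A and CDK16 had the only one with FH-DHX36. CDK16 (ENSG00000102225, chrX:47077259-47089396, plus strand, 16 exons), a PCTAIRE kinase, carried 1197 and 866 reads in 8 and 6 clusters. Its 3′UTR of 1229 nt, with the 3 stricter matches shown above, held 863 and 766 reads, 72.1% (69.5 to 74.6) and 88.5% (86.1 to 90.4) of the exonic reads. Thus CDK16 had nearly as many 3′UTR reads in the smaller PAR-CLIP as in the larger.

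By reads, the region of binding differed between the classes. The 3′UTR held 87.7% (87.4 to 87.9) of the exonic FH-DHX36-E335A reads on cyclins and 65.6% (64.7 to 66.5) of those on kinases, against 71.9% over all genes. With FH-DHX36 the shares were 79.4% (78.5 to 80.4) and 51.3% (49.5 to 53.1), against 51.4%. For cyclins and kinases the CDS share was 10.6% and 26.3% in the former PAR-CLIP and 14.4% and 36.8% in the latter. The 5′UTR share was 1.75% and 8.15%, and 6.12% and 12%. The 3′UTR made up a like part of the bound transcripts in both classes, 57.6% of the length for cyclins and 57.4% for kinases. Per kb of 3′UTR there were 4.08 FH-DHX36-E335A clusters on cyclins and 2.13 on kinases, against 1.45 on all bound genes. The densities were also above all bound genes in the other regions. They were 2.43 and 1.79 per kb of CDS, against 1.05, and 2.44 and 1.63 per kb of 5′UTR, against 1.33.

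The cyclin share of reads in the 3′UTR rested in part on the D-type genes. Without CCND2 it was 83.7% of FH-DHX36-E335A reads and 68.2% of FH-DHX36 reads, and without both CCND2 and CCND1 it was 78.6% and 56.1%. The latter values are still above those of the kinases, but by 13 and 4.77 percentage points in place of 22.1 and 28.2. For the kinases, leaving out the top gene moved the share upward, to 74.3% without CDK1 with FH-DHX36-E335A and to 68.7% without CDK4 with FH-DHX36. With the top gene of each class left out, cyclins at 68.2% were thus no longer above kinases in the FH-DHX36 PAR-CLIP. Over members with at least 100 exonic reads, the median 3′UTR share was 86.3% for 21 cyclins and 72.1% for 9 kinases with FH-DHX36-E335A, and 94.8% for 11 cyclins and 41.9% for 6 kinases with FH-DHX36. The FH-DHX36 median of the cyclins also rested on the D-type genes, since it was 67.9% without CCND2 and 40.1%, below that of the kinases, without CCND2 and CCND1.

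**Figure D2:**
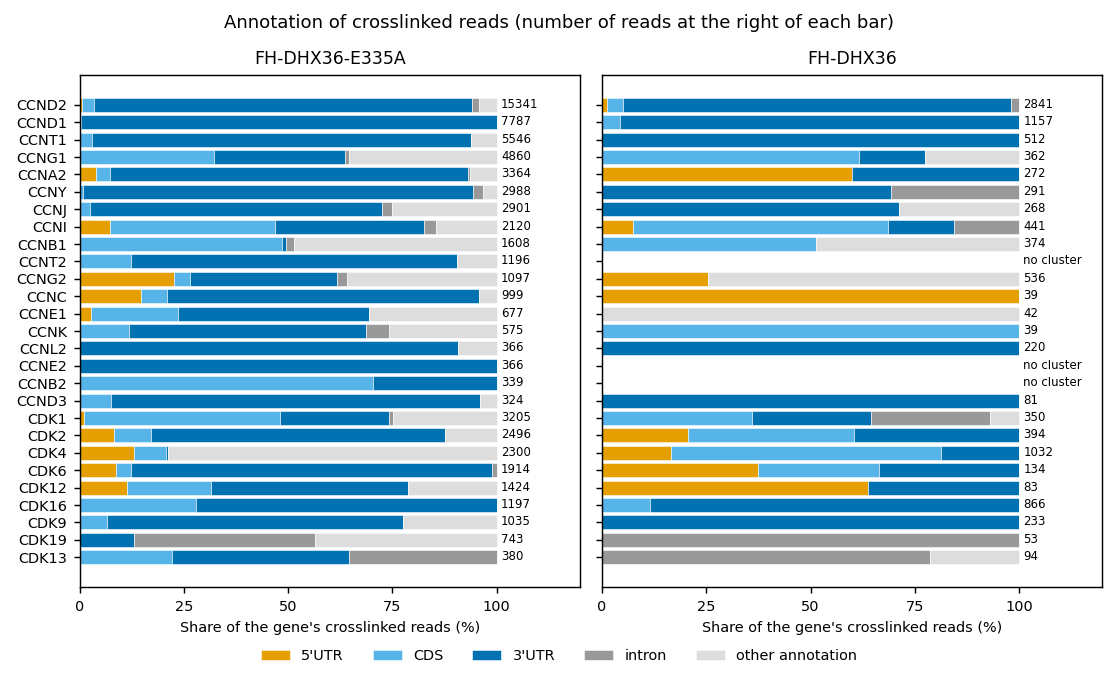
Share of each gene's crosslinked reads by annotation, in percent, for the 27 members with at least 300 FH-DHX36-E335A reads, in the FH-DHX36-E335A (left) and FH-DHX36 (right) PAR-CLIP, with the number of reads at the right of each bar. The 3′UTR fills most of the bar for CCND2, CCND1, CCNT1 and CDK9 in both, whereas for CCNA2, CDK2 and CDK6 its share is lower with FH-DHX36, and 1813 of the 2300 FH-DHX36-E335A reads on CDK4 fall in other annotation.

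Reads outside the region columns were 10.9% of the FH-DHX36-E335A reads on cyclins and 25.5% of those on kinases, against 21.4% over all genes. The kinase value rested largely on CDK4, which held 1813 of these 3808 reads. With FH-DHX36 the shares were 10.3% and 1.36%, against 16.7%. For CCNB1 this share was alike in both, at 48.6% and 48.7%, and for CDK4 it was 78.8% and 0%. Intronic reads were 1.34% and 3.52%, and 2.80% and 7.01%, for cyclins and kinases.

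The length of the 3′UTR went along with the number of 3′UTR clusters in cyclins. Across the 21 bound cyclins Spearman's rho was 0.74, across the 12 bound kinases 0.47, and across the 8616 bound protein-coding genes 0.43. The genes share 1 library pool, and rho is given as a description. The plot of 3′UTR length and clusters shows how members of like length differed. CCND2, CCNT1, CCNT2, CDK13 and CDK19 all have 3′UTRs of 4557 to 5344 nt, but had 33, 23, 8, 3 and 2 FH-DHX36-E335A clusters there. For estimated abundance and FH-DHX36-E335A reads, rho was -0.22 over the cyclins and 0.42 over the kinases, 0.04 over the 33 bound members together, against 0.32 over the 8616 genes.

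**Figure D3:**
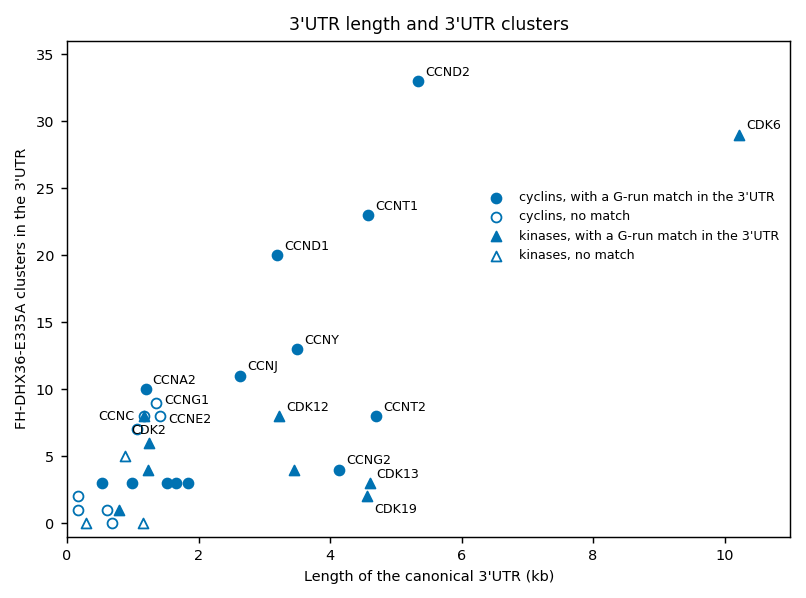
Number of FH-DHX36-E335A clusters in the 3′UTR against the length of the canonical 3′UTR in kb, for the 21 cyclins (circles) and 12 kinases (triangles) with a cluster, filled where the 3′UTR holds at least 1 G-run match with runs of at least 2 G. CCND2 has 33 clusters in 5344 nt and CDK6 has 29 in 10219 nt. Open symbols such as CCNG1 with 9 clusters are members with 3′UTR clusters but no match in the canonical 3′UTR.

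Binding in the 3′UTR was also listed for members without any G-run match in the canonical 3′UTR. The authors annotated clusters with GENCODE 19, so that the 3′UTR searched need not be the one that held the clusters. Of the 20 cyclins with an FH-DHX36-E335A cluster in the 3′UTR, 7 had no match with at least 2 G, namely CCNB1, CCNB2, CCNC, CCNE2, CCNG1, CCNH and CCNI. Of the 10 such kinases 1 had none, CDK1. By class the shares were thus 35% and 10%, against 23.3% of all protein-coding genes with a 3′UTR cluster. In reads, these genes held 3581 of the 40756 3′UTR reads on cyclins and 836 of 6970 on kinases. Over all protein-coding genes the number was 488807 of 4460940. With FH-DHX36, CCNG1 and CCNI of 11 cyclins and CDK1 of 7 kinases had no match, against 11.6%. In the 5′UTR, all 7 cyclins with an FH-DHX36-E335A cluster there had a match, and 3 of 5 kinases did, against 18.3% of all genes without one.

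By NXPM, which takes abundance into account, cyclins did not lead. The median NXPM was 6.88 for bound cyclins and 8.63 for bound kinases with FH-DHX36-E335A, against 5.66 for all bound genes. With FH-DHX36 it was 2.97 and 8.30, against 7.84, so that cyclins lay below and kinases near all bound genes. Without the division by abundance the ratio of the cyclin to the kinase median with FH-DHX36 was 1.17 in place of 0.358. Ranges were wide and overlapped, from 0.458 to 233.5 for cyclins and from 0.120 to 223.0 for kinases with FH-DHX36-E335A. An NXPM over 100 with FH-DHX36-E335A was reached by 6 of 33 bound members, against 5.18% of all bound genes. They were CCNT1 with 233.5, CDK6 with 223.0, CCND2 with 205, CCND1 with 108, CDK19 with 104 and CCNJ with 102. For CDK19, only 96 of the 743 FH-DHX36-E335A reads were exonic, while 323 were intronic and 324 lay outside the region columns. Its NXPM for the 3′UTR alone was 25.2.

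With FH-DHX36 the leading NXPM values were 153.9 for CCND2, 128 for CCNG2, 87.3 for CCNT1, 64.9 for CCND1 and 63.2 for CDK6. Thus CCND2, CCNT1, CCND1 and CDK6 were among the top 5 members in both, and CDK19 and CCNG2 each in 1. Their estimated abundances ran from 0.815 for CDK19 to 8.54 for CCND2, all under the median of 9.62 over the 33 bound members. Abundant members had low NXPM, such as 1.89 and 3.43 for CDK4 with an abundance of 139 and 2.19 and 2.07 for CCNB1 with 83.8. Abundance is the divisor of NXPM, so that this order is in part built into the score. The NXPM of both PAR-CLIPs shares that divisor, and the values are shown side by side in the plot of NXPM.

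**Figure D4:**
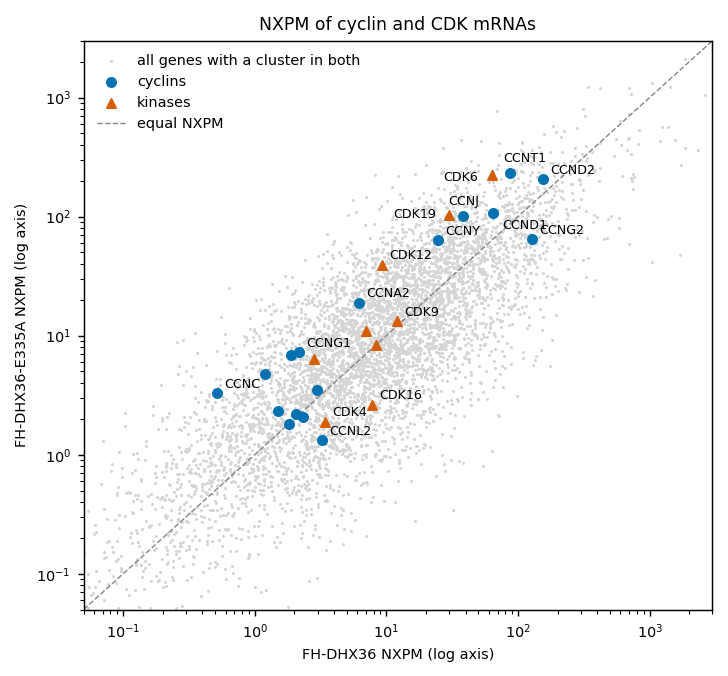
NXPM with FH-DHX36-E335A against NXPM with FH-DHX36, both on log axes from 0.05 to 3000, for 17 cyclins (circles), 9 kinases (triangles) and all 5669 genes with a cluster in both (gray, 145 outside the axes). CCND2, CCNT1 and CDK6 are at the upper end of the members, CCNG2, CDK16, CDK4 and CCNL2 lie below the dashed line of equal NXPM, and CCNC lies farthest above it.

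To compare the PAR-CLIPs, reads of each gene were divided by the total of its PAR-CLIP. For the 17 cyclins bound in both, the median ratio of FH-DHX36-E335A to FH-DHX36 was 1.66, and for the 9 kinases it was 1.56, against 1.09 for the 5669 genes bound in both. Scaled reads were more than 2-fold higher with FH-DHX36-E335A for 8 cyclins and 4 kinases, against 28.6% of all genes. They were more than 2-fold higher with FH-DHX36 for 1 cyclin and 1 kinase, CCNL2 and CDK16, against 24.8%. In raw reads all 26 members were higher with FH-DHX36-E335A, as were 5060 of the 5669 genes.

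Single members covered a wide range of this ratio. It was highest for CCNC with 6.32, CDK12 with 4.23, CCNE1 with 3.98, CCNK with 3.64 and CDK6 with 3.53. For CCNC, CCNE1 and CCNK it rested on 39, 42 and 39 FH-DHX36 reads. The 42 reads on CCNE1 all lay outside the region columns, whereas 469 of its 677 FH-DHX36-E335A reads were exonic. The ratio was lowest for CDK16 with 0.341, CCNL2 with 0.411, CCNG2 with 0.505 and CDK4 with 0.550. CCND2 at 1.33 and CCND1 at 1.66, the members with the most reads, lay between. After the values were seen, the ratio was set against the density of G-run matches in the 3′UTR. Spearman's rho was -0.33 over the 26 members, -0.06 over the 17 cyclins and -0.68 over the 9 kinases, against -0.22 over 5344 protein-coding genes, and is a description only.

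Genes that act on cyclins and CDKs were also bound. Of 8 CDK inhibitors, 7 had an FH-DHX36-E335A cluster and 6 an FH-DHX36 cluster, with the most FH-DHX36-E335A reads on CDKN1B (p27) with 3798 and 265 reads, CDKN2C (p18) with 1534 and 497, and CDKN2A with 671 and 135. With FH-DHX36, CDKN2C had the most. CDKN1C had none. Of 13 activating and inhibitory regulators, 11 and 8 were bound. CDC25A, a phosphatase that activates CDKs, carried 7437 and 652 reads, of which 7420 FH-DHX36-E335A reads lay in the 3′UTR. HEXIM1, an inhibitor of P-TEFb, carried 4972 and 99 reads. CKS1B, a CDK-binding subunit, carried 4465 and 397 reads in only 2 and 2 clusters, and 4073 of its FH-DHX36-E335A reads lay in the 5′UTR.

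Of 4 ubiquitin ligase adaptors, 4 and 3 were bound, with the most FH-DHX36-E335A reads on SKP2 (1537 and 125), CDC20 (390 and 359) and FBXW7 (274 and 0). With FH-DHX36, CDC20 had the most and FZR1 followed with 139. Of 12 genes with cyclin-like or kinase-like names, 8 and 2 were bound. In FH-DHX36-E335A reads CDK2AP1 with 740 and 0, CCNB1IP1 with 595 and 0, and CDKL2 with 380 and 114 were highest, and the FH-DHX36 clusters were on CDKAL1 with 143 reads and on CDKL2. Against the shares of protein-coding genes given above, only the 2 of 12 genes bound with FH-DHX36 in this last list lay lower.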

How the data were processed

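PAR-CLIP was done by the authors in both HEK293 lines with 2 replicates each. Reads were mapped to hg19, clusters were called with PARalyzer within PARpipe and annotated with GENCODE 19, and bcl2fastq 2.17.1 is named in the submitters' processing notes. For other programs the version was not given in the sources used here. Its table was deposited by the authors with counts of crosslinked reads and of clusters, per gene and per 5′UTR, CDS, 3′UTR and intron. NXPM was deposited by the authors as a score, in which crosslinked reads are scaled to the PAR-CLIP total and divided by RNA abundance. Reads outside these 4 annotations were taken as the total minus their sum.

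Abundance was recovered from reads and NXPM with 0.001 added to the divisor, and for all 5646 genes compared both PAR-CLIPs gave the same value within 0.1%. Exonic means 5′UTR, CDS and 3′UTR together. Lengths and sequences were from canonical transcripts of GENCODE 44 on GRCh37, found for all 46 members, and the 346 G-run matches of at most 30 nt on members that are contiguous in the genome and not on the chromosome of CCNE2 were identical to the genome sequence at their coordinates. Ranks count from 1 for the highest value. The code was tested on simulated data. Analyses used Python 3.11.15, pandas 2.3.3 and SciPy 1.17.1.

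The table has a single set of values per line, so that no test was made and edgeR was not used. Members and lists were chosen with earlier results of these data known. Given in full were the 8 cyclins and 8 kinases with the most FH-DHX36-E335A reads, the 5 members with the highest NXPM in each PAR-CLIP and members bound in 1 PAR-CLIP alone, and the other members by their group. For the lists of other pathway genes, counts and the 3 genes with the most reads were given. Other cluster minimums, length scaling, leaving out the top gene, another scaling of the ratio and another G-run pattern were tried as alternatives.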

Additional observations from a re-analysis of the deposited data

How the results depend on the processing

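Of 45 alternatives, 5 turned a comparison of medians and 14 moved a 3′UTR share outside its 95% counting interval or changed the density of G-run matches. The other 26 turned no comparison, but some moved the size of a value, such as from 17 to 13 cyclins with at least 2 FH-DHX36 clusters and a ratio of FH-DHX36-E335A NXPM medians of 0.797 to 0.983 without division by abundance. The ratio of the cyclin to the kinase median of FH-DHX36-E335A reads, 0.983 over bound members, became 14.1 with unbound members at 0, 2.06 per kb of transcript and 1.01 without the top gene of each class. With FH-DHX36 it was 1.17 and became 0.753 per kb, and with unbound members included it could not be given, since the kinase median was then 0. The ratio of the FH-DHX36 NXPM medians was 0.358 and became 1.17 without division by abundance. Kinases have fewer bound members, which by construction gives the value of 14.1. For the others the cause was not tested.

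The 3′UTR share of exonic FH-DHX36-E335A reads was 87.7% for cyclins and became 69.5% in clusters, 86.3% as the median of members and 83.7% without CCND2. For kinases it was 65.6% and became 62.0%, 72.1% and 74.3%. With FH-DHX36 the cyclin share of 79.4% became 67.1%, 94.8% and 68.2%, and the kinase share of 51.3% became 54.1%, 41.9% and 68.7%. Without the top gene of each class the FH-DHX36 shares of 68.2% and 68.7% no longer put cyclins above kinases. The density of G-run matches per kb of 3′UTR was 0.0674 in cyclins and 0.119 in kinases with runs of at least 3 G, which is a rarer pattern by construction.

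No paired analysis was possible because the table gives a single set of values per cell line. For the same reason no replicate was left out, no spread between replicates was available and no p-value was computed. The FH-DHX36 PAR-CLIP had fewer reads, and the part of depth in the absence of clusters there was not tested. NXPM and abundance exist only for genes with a cluster.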

Other observations

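Regulators of CDKs differed in where reads lay. CKS1B had 4073 of 4465 FH-DHX36-E335A reads in the 5′UTR and HEXIM1 had 1972 of 4972 there, whereas CDC25A had 7420 of 7437 in the 3′UTR and WEE1, a kinase that inhibits CDK1, had 520 of 761 in the CDS. CDC25B, a further CDK-activating phosphatase, had 733 of 2144 reads in the 5′UTR and 1411 in the 3′UTR. The reads came from few clusters in 2 of these genes. CKS1B had 2 FH-DHX36-E335A clusters, 1 of them in the 3′UTR, and CDC25B had 5, 4 of them in the 3′UTR. HEXIM1 had 12 clusters, CDC25A 10 and WEE1 10. These genes were described after their values were seen, and no test was made.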
